A study of Mus musculus with 6 samples.

Results

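The Wnt genes described here are the mouse Wnt ligands (Wnt), Frizzled receptors (Fzd), secreted Frizzled-related proteins (Sfrp), Dickkopf antagonists (Dkk), R-spondins (Rspo) and their receptors Lgr4, Lgr5 and Lgr6. They also include the coreceptors Lrp5 and Lrp6, the inhibitors Wif1 and Notum, the ligases Rnf43 and Znrf3, and the genes Axin2, Nkd1, Tcf7 and Lef1. They were chosen by symbol, and 52 of the 20007 gene identifiers in the files belong to them. The set holds 17 Wnt, 10 Fzd, 4 Sfrp, 4 Dkk, 4 Rspo and 3 Lgr genes, and 10 others. Wnt3a and Wnt8b, which the same rule would take, were not analysed here.

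Gene expression was measured by RNA sequencing of cultured cells from KM strain mice, with 2 libraries in each of 3 groups. CiSCs are embryonic fibroblasts of 13.5 days post coitum that had been passaged, seeded and, 24 h later, exposed to unnamed small-molecule compounds to induce Sertoli-like cells. MSCs are plated Sertoli cells, which nurse the germ cells inside the testis tubules, from mice of postnatal day 60. MEFs are embryonic fibroblasts labelled 13.5 days post coitum, with an earlier day also possible by the growth protocol. No genotype, transgene or named agent is given for any group, and no passaged fibroblasts without compounds are among the groups analysed here.

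Wnt ligands are secreted lipid-modified proteins that bind a Frizzled receptor together with Lrp5 or Lrp6, which stabilises beta-catenin and lets it act with the nuclear factors of the Tcf and Lef family. Some ligands act instead through receptors such as Ror2 and the planar polarity proteins. Secreted antagonists, R-spondins and membrane ligases set how much receptor is free to signal, and targets such as Axin2 feed back on the pathway. In the embryonic gonad, Rspo1, Wnt4 and beta-catenin are known for promoting the ovarian fate, which the testis-determining genes oppose.

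Each library held between 19294671 and 20418587 expected counts, so that 1 read was worth 0.0468 to 0.0543 CPM (counts scaled to library size, after the trimmed mean of M values). The 2 MEF libraries stood further apart from each other than those of the other groups. Tested genes more than 2-fold apart within a group numbered 477 in CiSCs and 415 in MSCs, against 1416 in MEFs. All 11 macrophage and leukocyte markers on a list were detected in every group and summed to 34.5 and 50.01 CPM in CiSCs and 1403 and 1323 CPM in MSCs, against 11881 and 19342 CPM in MEFs. Lyz2, Csf1r and Laptm5 were the highest of them. The 15 Sertoli markers summed to 4838 and 4130 CPM in CiSCs and 6304 and 9243 CPM in MSCs, against 49.7 and 42.6 CPM in MEFs. Clu, Kitl and Cldn11 led that list. In CiSCs, Clu made up 4732 and 4019 CPM of that sum, and the junction gene Cldn11 had 1.00 and 1.17 CPM in CiSCs and 263 and 373 CPM in MSCs, against 0.101 and 0.0520 CPM in MEFs. Of the 12 Sertoli markers tested, 5 were higher and 0 lower in CiSCs than in MEFs by edgeR (adjusted p), 12 were higher in MSCs than in MEFs, and 11 were lower and 0 higher in CiSCs than in MSCs. Of all tested genes, 19.6% were higher in CiSCs than in MEFs, 22.5% higher in MSCs than in MEFs, and 25.1% lower in CiSCs than in MSCs. Wt1, a defining marker, had 22.4 and 21.1 CPM in CiSCs and 175 and 224 CPM in MSCs, against 1.31 and 1.40 CPM in MEFs. Gata4, another, had 0.0954 and 0.0935 CPM in CiSCs and 240 and 265 CPM in MSCs, against 0.152 and 0.156 CPM in MEFs, and Fshr had no read in CiSCs or MEFs. Gata4 thus passed the filter on low counts (0.507 CPM in both libraries of a group) through MSCs alone. Sertoli marker counts that involve MSCs are therefore descriptions. Of 8 Leydig and steroidogenic markers, 4 were at 0 in CiSCs, 1 in MSCs and 3 in MEFs. The list, led by Cyp11a1, Star and Fdx1, summed to 12.3 and 11.2 CPM in CiSCs and 1553 and 1579 CPM in MSCs, against 11.6 and 13.0 CPM in MEFs. The 7 endothelial markers, none at 0 in a group and led by Cdh5, Kdr and Egfl7, summed to 23.5 and 25.6 CPM in CiSCs and 97.1 and 101 CPM in MSCs, against 16.9 and 16.3 CPM in MEFs, and 6 were higher in MSCs than in MEFs. The 6 germ cell markers, led by Zbtb16, Ddx4 and Dazl, summed to 2.56 and 2.11 CPM in CiSCs and 32.7 and 25.9 CPM in MSCs, against 3.97 and 3.86 CPM in MEFs. Tnp1 was at 0 in every group and Prm1 in CiSCs and MEFs, and all 3 germ cell markers tested were higher in MSCs than in MEFs. As 3 of the list averaged over 1 CPM in MSCs, against 1 in CiSCs and 1 in MEFs, that count may follow from the filter and is a description. The 6 peritubular and smooth muscle markers, led by Acta2, Tagln and Cnn1 and none at 0 in a group, summed to 1703 and 1535 CPM in CiSCs and 3932 and 3745 CPM in MSCs, against 3653 and 3269 CPM in MEFs, with 5 lower in CiSCs and 2 higher in MSCs than in MEFs. The 10 fibroblast markers (Col1a1, Col3a1 and Col1a2 highest) summed to 29485 and 29825 CPM in CiSCs. Their sum was highest in MSCs, with 40115 and 42651 CPM, against 23990 and 25161 CPM in MEFs. The 5 epithelial markers (Krt18, Epcam and Cdh1 highest) summed to between 7.58 and 17.6 CPM in a library. The part of these other cells in the results below was not tested, and in bulk libraries fewer cells of a type and less RNA per cell cannot be told apart.

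Of the 52 Wnt genes, 38 had enough reads to be tested and 14 did not. The 14 were Wnt1, Wnt3, Wnt7a, Wnt7b, Wnt8a, Wnt9b, Wnt16, Fzd9, Fzd10, Rspo4, Dkk1, Dkk4, Sfrp5 and Wif1. Their largest count in a library was 16, and Wnt9b and Dkk4 had no read in any library. Wnt16, a ligand of bone and joint, had 14 reads in CiSCs and 8 in MSCs, against 14 in MEFs, and the receptor Fzd9 had 7 reads in CiSCs and 16 in MSCs, against 2 in MEFs. The other 9 besides Wif1 had at most 5 reads in a group. Rspo1, Wnt10a, Wnt10b, Lgr5, Lef1 and Notum passed the filter, which needed 0.507 CPM in both libraries of a group, through 1 group alone. The filter thus favoured a higher level in that group, without fixing that the test was passed. Counts that include them, and the fold changes of these 6 genes against that group, are therefore descriptions. A further 7 members reached the minimum in 2 groups alone, either of which could have passed them. Tcf7, Wnt2, Sfrp4 and Rnf43 did so in CiSCs and MSCs, Dkk2 and Rspo2 in CiSCs and MEFs, and Wnt4 in MSCs and MEFs.

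Between CiSCs and MEFs, 20 of the 38 were higher and 7 lower in CiSCs at an adjusted p under 0.05, which is 71.1% in either direction. Of all 15272 tested genes, 40.9% passed, with 19.6% higher and 21.3% lower. Their median log2 fold change was 1.06, and that of all tested genes was -0.0022. Between MSCs and MEFs, 22 were higher and 7 lower in MSCs, or 76.3%, beside 42.5% of all tested genes (22.5% higher and 20.0% lower), and the median was 1.31 beside 0.010. Between CiSCs and MSCs, 12 were higher and 14 lower in CiSCs, or 68.4%, beside 42.8% (17.7% higher and 25.1% lower), and the median was 0.089 beside -0.025. The first pair of comparisons shares the MEF libraries. All 3 comparisons come from the same fit of the same 6 libraries and are not independent. Each log2 fold change of the third is the difference of those of the first pair. Without the second CiSC library 12 members were higher in CiSCs than in MEFs, without the first MSC library 4 were lower in MSCs than in MEFs, and without the second CiSC or the second MSC library 9 were lower in CiSCs than in MSCs. The background moved too, with 3449 genes called between CiSCs and MEFs without the second CiSC and 9479 without the first MEF library. Each adjusted p was computed by the quasi-likelihood test of edgeR and adjusted by Benjamini-Hochberg over all tested genes, and the ± beside a log2 fold change is a standard error. Whether the libraries within a group stem from separate cultures or animals is not stated, and the p-values rest only on the spread between these libraries, which may be technical. That spread was estimated jointly over the 3 groups, although the MEF libraries stood further apart than the others. A p-value is thus not based on the libraries of its own comparison alone.

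**Figure D1:**
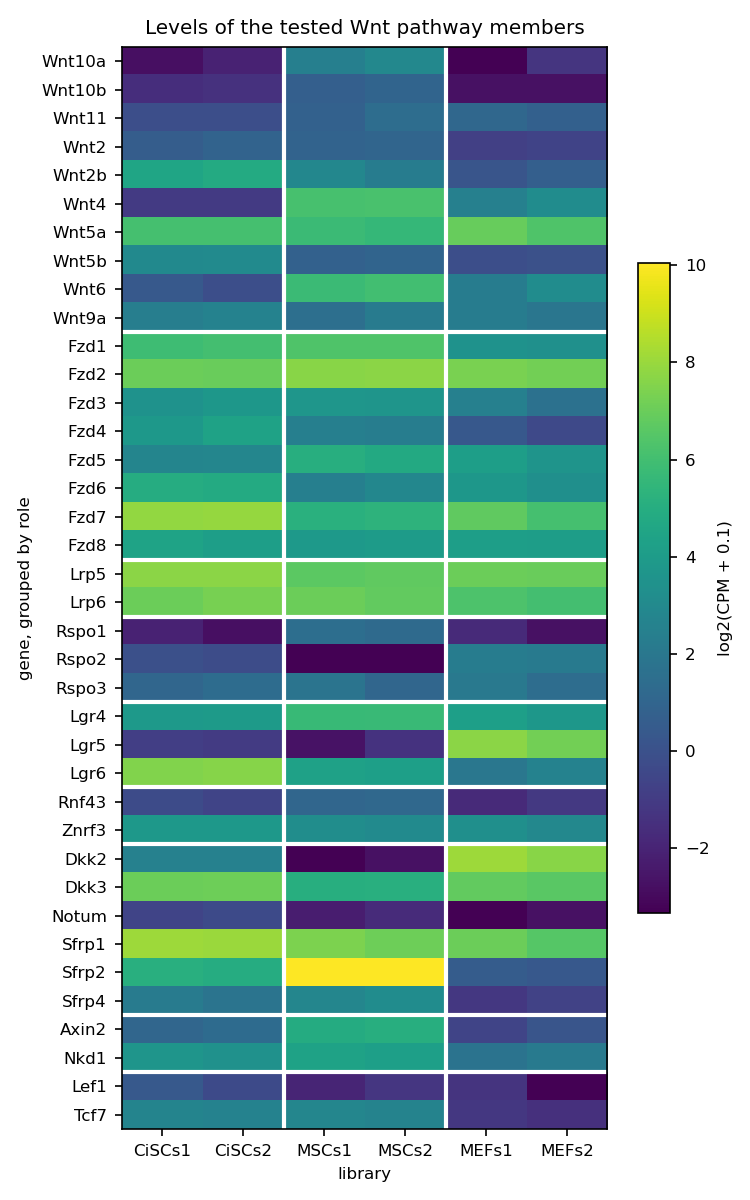
Level of the 38 tested Wnt genes as log2(CPM + 0.1) in each of the 6 libraries, with genes in rows grouped by role and white lines between roles and groups. Compared along each row, Sfrp2 is brightest in the MSC libraries, Dkk2 and Lgr5 in the MEF libraries, and Lgr6 in the CiSC libraries.

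The letters upstream of the start sites are shown for 5 genes. Wnt4 and Wnt6 are ligands that were both lowest in CiSCs and highest in MSCs, Axin2 is a widely used target of beta-catenin, and Wnt5b and Wnt11 are the 2 tested members whose letters hold a match to a Tcf/Lef motif. The sequences are the 250 bases before the annotated start on the strand of the gene, from RefSeq on GRCm38.p6, and capitals mark a match to CTTTGAA or CTTTGAT on either strand. Where RefSeq gives several starts, the one with a match is shown. The Wnt4 window lies at chr4:137277385-137277634 (plus strand), that of Wnt6 at chr1:74771642-74771891 (plus), that of Axin2 at chr11:108920099-108920348 (plus), that of Wnt5b at chr6:119449387-119449636 (minus) and that of Wnt11 at chr7:98834862-98835111 (plus).
Wnt4: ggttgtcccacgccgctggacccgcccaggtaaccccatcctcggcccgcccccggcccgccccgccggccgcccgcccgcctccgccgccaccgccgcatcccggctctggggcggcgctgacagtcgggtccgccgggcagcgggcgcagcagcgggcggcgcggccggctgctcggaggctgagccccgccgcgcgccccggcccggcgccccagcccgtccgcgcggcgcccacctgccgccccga
Wnt6: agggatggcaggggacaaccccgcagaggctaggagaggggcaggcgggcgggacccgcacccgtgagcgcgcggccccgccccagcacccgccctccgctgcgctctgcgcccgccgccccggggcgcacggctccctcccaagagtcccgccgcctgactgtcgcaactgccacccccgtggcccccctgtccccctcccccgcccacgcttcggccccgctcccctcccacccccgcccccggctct
Axin2: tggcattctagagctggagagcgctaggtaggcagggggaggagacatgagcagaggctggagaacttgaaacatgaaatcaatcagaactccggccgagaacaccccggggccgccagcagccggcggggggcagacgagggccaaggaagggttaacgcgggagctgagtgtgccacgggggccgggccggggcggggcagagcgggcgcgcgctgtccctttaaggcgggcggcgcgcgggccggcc
Wnt5b: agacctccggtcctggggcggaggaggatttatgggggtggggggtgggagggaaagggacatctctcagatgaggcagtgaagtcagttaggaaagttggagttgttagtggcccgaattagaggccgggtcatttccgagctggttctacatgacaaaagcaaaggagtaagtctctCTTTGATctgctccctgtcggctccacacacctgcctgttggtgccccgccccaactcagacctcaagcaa
Wnt11: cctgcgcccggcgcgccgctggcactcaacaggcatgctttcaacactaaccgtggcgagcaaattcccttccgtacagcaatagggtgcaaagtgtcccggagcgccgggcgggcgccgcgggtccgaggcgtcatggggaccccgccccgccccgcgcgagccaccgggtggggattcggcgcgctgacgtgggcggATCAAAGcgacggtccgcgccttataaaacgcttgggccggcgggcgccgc

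The match began 71 bases before the start in Wnt5b, on the strand shown, and 51 bases before it in Wnt11, as the reverse complement. Of the 33 members with a promoter in the RefSeq table, 3 held a match, Dkk1 being the other, which is 9.09%, beside 8.63% of 27025 genes with a promoter. By window, 3 of 41 member promoters matched (7.32%), beside 7.48% of all 32851. The member windows had a median GC content of 66.4% (44.4% to 85.2%), against 52.4% over all windows, with Wnt4 at 85.2%, Wnt6 at 79.6% and Wnt5b at 55.6%. A match is a description of these letters and not a bound site.

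Among the Wnt ligands, the groups differed in which genes supplied the mRNA. On the per-length scale (CPM per kb of the longest coding transcript), the 17 ligands summed to 23.5 and 25.7 in CiSCs and 59.4 and 64.7 in MSCs, against 24.2 and 21.2 in MEFs. Wnt5a, a ligand known for beta-catenin-independent signalling, made up 41.4% and 38.2% of that sum in CiSCs and 13.1% and 10.6% in MSCs, against 71.9% and 55.5% in MEFs. Wnt2b came next in CiSCs with 29.1% and 33.9%, followed by Wnt5b with 14.5% and 13.4%. In MSCs the leading ligands were Wnt6, with 45.3% and 47.4%, and Wnt4, with 28.1% and 27.3%. Wnt6 was also the next ligand in MEFs, with 9.57% and 20.3%, where the 2 libraries lay far apart. Wnt2b made up at most 3.62% of the sum in any MSC or MEF library, and Wnt5b at most 1.75%.

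**Figure D2:**
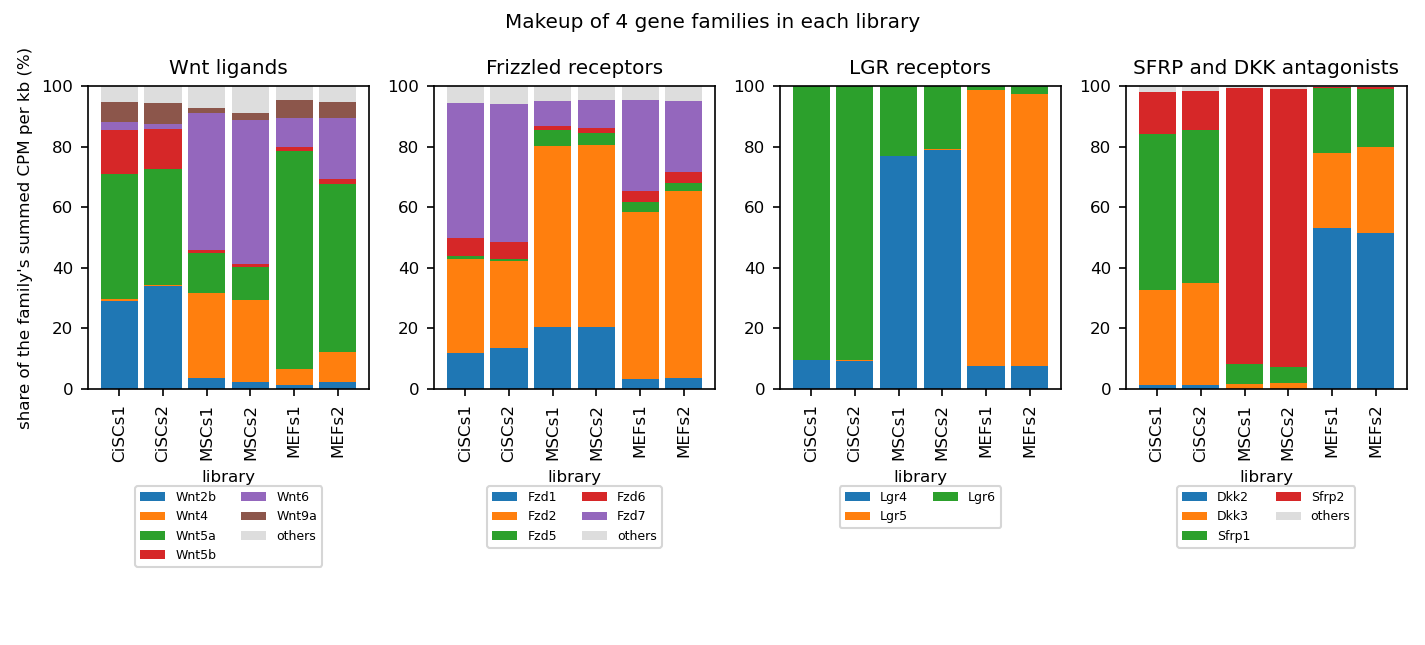
Share of each gene in its family's summed CPM per kb (percent, vertical axis) in each library (horizontal axis) for the Wnt ligands, Frizzled receptors, LGR receptors and SFRP and DKK antagonists; genes under 5% in every library are joined as others. Lgr6 makes up 90.3% and 90.5% of its family in CiSCs, Lgr4 76.8% and 78.7% in MSCs, and Lgr5 91.3% and 89.8% in MEFs.

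Wnt2b, a ligand known to activate beta-catenin in several embryonic tissues, had 22.8 and 29.0 CPM in CiSCs and 7.13 and 4.84 CPM in MSCs, against 1.03 and 1.55 CPM in MEFs. The 3 groups did not overlap. Wnt2b rose by 4.33 ± 0.32 (log2) in CiSCs over MEFs (adjusted p = 1.37e-04) and by 2.21 ± 0.32 in MSCs over MEFs (adjusted p = 0.00222), and was higher by 2.11 ± 0.28 in CiSCs than in MSCs (adjusted p = 0.00126). Wnt5b, the paralog of Wnt5a, followed the same order at lower CPM. It had 8.11 and 8.18 CPM in CiSCs and 1.65 and 1.85 CPM in MSCs, against 0.809 and 0.883 CPM in MEFs. Its log2 fold change was 3.26 ± 0.25 in CiSCs over MEFs (adjusted p = 1.54e-04) and 2.22 ± 0.23 in CiSCs over MSCs (adjusted p = 4.49e-04). In MSCs over MEFs it was 1.04 ± 0.26 (adjusted p = 0.0200), and the adjusted p lay between 0.0631 and 0.107 without either CiSC or either MSC library.

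Wnt4, required for female gonad development and also made by stromal cells of many tissues, was scarce in CiSCs and abundant in MSCs. It had 0.389 and 0.376 CPM in CiSCs and 69.9 and 74.0 CPM in MSCs, against 5.48 and 8.78 CPM in MEFs. The CiSC level came from 16 reads over both libraries. Wnt4 fell by 4.21 ± 0.33 (log2) in CiSCs relative to MEFs (adjusted p = 1.70e-04), rose by 3.34 ± 0.23 in MSCs over MEFs (adjusted p = 1.09e-04) and differed by -7.55 ± 0.32 between CiSCs and MSCs (adjusted p = 1.70e-05). Wnt6 had the same order of groups, with 1.24 and 0.842 CPM in CiSCs and 55.6 and 63.5 CPM in MSCs, against 4.80 and 8.94 CPM in MEFs. Its log2 fold change was -2.72 ± 0.37 in CiSCs over MEFs (adjusted p = 0.00178), 3.12 ± 0.31 in MSCs over MEFs (adjusted p = 4.21e-04) and -5.83 ± 0.37 in CiSCs over MSCs (adjusted p = 6.29e-05). For both ligands CiSCs were below MEFs and MSCs above them, with no overlap.

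Wnt10a and Wnt10b, 2 related ligands that act through beta-catenin, were found mainly in MSCs. Wnt10a had 0.0477 and 0.140 CPM in CiSCs and 5.42 and 7.44 CPM in MSCs, against 0 and 0.312 CPM in MEFs. The CiSC and MEF levels overlapped and rested on 4 and 6 reads, and the filter was passed through MSCs alone. The fitted log2 fold change was 5.33 ± 0.79 for MSCs over MEFs and -6.00 ± 0.84 for CiSCs over MSCs, given as a description. Wnt10b had 0.238 and 0.281 CPM in CiSCs and 1.54 and 1.90 CPM in MSCs, against 0.0506 and 0.0520 CPM in MEFs, where 2 reads were counted. By counting error alone its ratio to MEFs was 5.07 in CiSCs (exact binomial 95% interval 1.11 to 47.1) and 33.5 in MSCs (8.91 to 283). The CiSC call against MEFs (adjusted p = 0.0395) was lost when any 1 library was left out, at adjusted p of 0.0792 to 0.150, and was 0.0783 with a replicate block.

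Wnt5a itself had 68.3 and 69.0 CPM in CiSCs and 54.5 and 48.2 CPM in MSCs, against 122 and 82.6 CPM in MEFs. It was lower in MSCs than in MEFs by a log2 fold change of -0.99 ± 0.20 (adjusted p = 0.00896), and this was 0.0528 without the first MSC library and 0.0832 without the second. The value for CiSCs over MEFs was -0.58 ± 0.20 (adjusted p = 0.0614), and it passed at 0.0480 without the first and 6.10e-04 without the second MEF library. For CiSCs over MSCs it was 0.42 ± 0.20 (adjusted p = 0.147), and this also passed without either MEF library, at 0.00549 and 0.00651. Each of its 3 comparisons thus changed sides of the threshold when 1 library was left out.

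Wnt2, a ligand of mesenchymal cells, had 1.45 and 1.84 CPM in CiSCs and 1.84 and 1.92 CPM in MSCs, against 0.476 and 0.536 CPM in MEFs. It was higher than in MEFs by 1.73 ± 0.36 in CiSCs (adjusted p = 0.00971, and 0.0719 without the second CiSC library) and by 1.93 ± 0.36 in MSCs (adjusted p = 0.00584). Wnt11, known for roles in cell movement, was the lowest in CiSCs, with 0.811 and 0.842 CPM, beside 1.65 and 2.61 CPM in MSCs, against 2.12 and 1.61 CPM in MEFs. Its lower level in CiSCs passed the test against MEFs (log2 fold change -1.17 ± 0.38, adjusted p = 0.0482) and MSCs (-1.36 ± 0.38, adjusted p = 0.0275). Without 1 library these became as high as 0.177 and 0.182, and with a replicate block they were 0.0856 and 0.0561. Wnt9a, at 5.20 and 5.89 CPM in CiSCs and 2.87 and 4.67 CPM in MSCs, against 4.70 and 3.69 CPM in MEFs, passed no comparison.

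**Figure D3:**
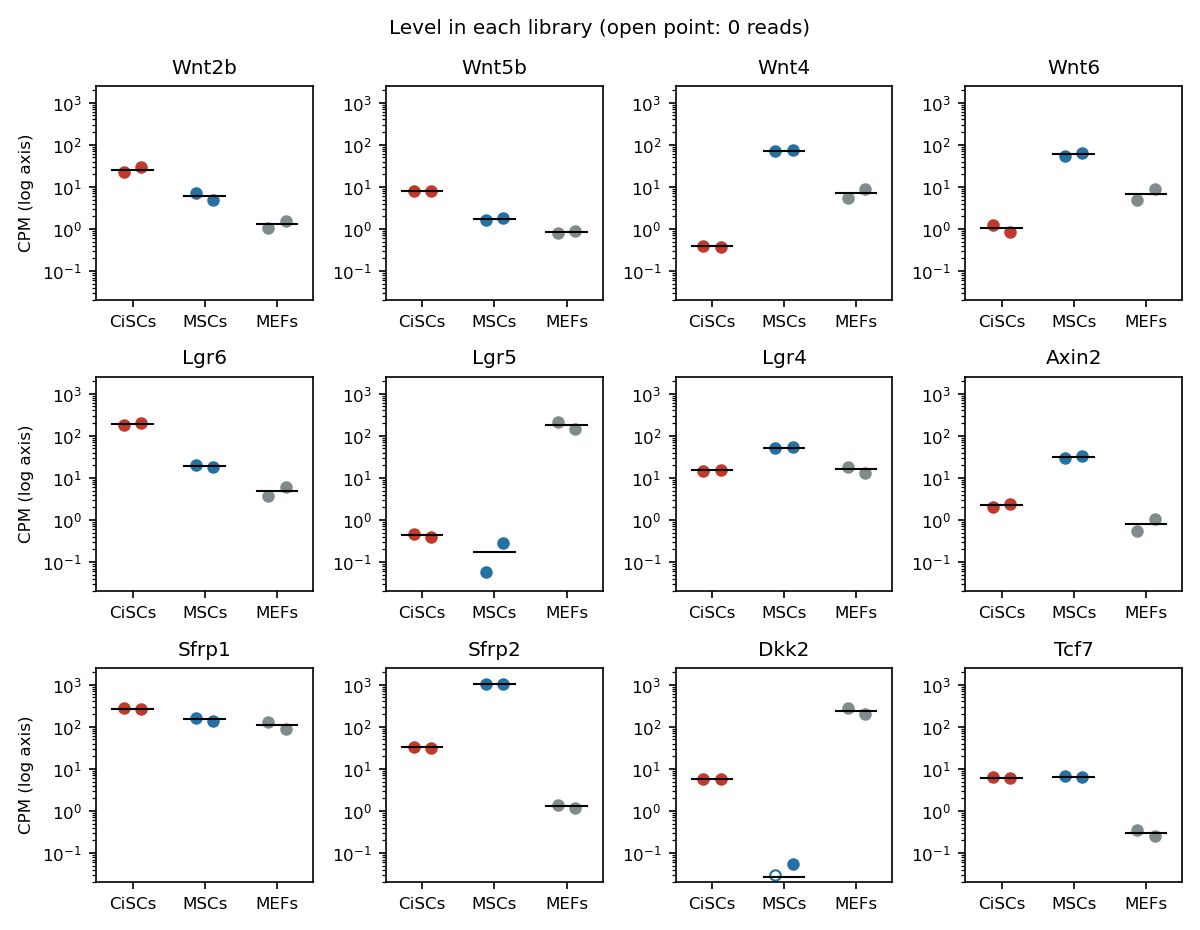
CPM (log axis) of 12 Wnt genes in each library of CiSCs, MSCs and MEFs; points are libraries, lines are the means of 2 libraries, and an open point marks 0 reads. Wnt4 and Wnt6 are lowest in CiSCs and highest in MSCs, Wnt2b, Wnt5b and Lgr6 are highest in CiSCs, and Lgr5 and Dkk2 are highest in MEFs.

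The Frizzled receptors, the membrane proteins that bind Wnt, were present in every group. Of 8 tested, 5 were higher and 1 lower in CiSCs than in MEFs, 5 were higher and 2 lower in MSCs than in MEFs, and 3 were higher and 2 lower in CiSCs than in MSCs. These are 75.0%, 87.5% and 62.5% called, beside 40.9%, 42.5% and 42.8% of all tested genes. Their summed CPM per kb was 118 and 119 in CiSCs and 93.4 and 97.0 in MSCs, against 80.0 and 65.0 in MEFs. Fzd7 led this sum in CiSCs with 44.6% and 45.4%, while Fzd2 led in MSCs with 59.6% and 60.0% and in MEFs with 55.1% and 61.6%. Fzd8 passed in none of the comparisons, with 17.7 to 21.1 CPM in CiSCs and 14.9 to 15.8 CPM in MSCs, against 17.0 to 17.9 CPM in MEFs; for CiSCs over MSCs its adjusted p of 0.126 became 0.0471 and 0.0493 without either MEF library.

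Fzd4, also the receptor of the ligand norrin, had 14.0 and 20.3 CPM in CiSCs and 5.37 and 5.05 CPM in MSCs, against 1.16 and 0.675 CPM in MEFs. It rose by 4.21 ± 0.33 (log2) in CiSCs (adjusted p = 1.78e-04) and by 2.49 ± 0.34 in MSCs over MEFs (adjusted p = 0.00161), and was 1.72 ± 0.28 higher in CiSCs than in MSCs (adjusted p = 0.00329). Fzd1 was also higher than in MEFs in both groups. It had 59.1 and 66.8 CPM in CiSCs and 80.8 and 83.3 CPM in MSCs, against 11.0 and 10.2 CPM in MEFs, with log2 fold changes of 2.57 ± 0.14 (adjusted p = 4.34e-05) and 2.95 ± 0.15 (adjusted p = 2.98e-05). Between CiSCs and MSCs it did not pass (-0.38 ± 0.13, adjusted p = 0.0576), but did without either MEF library, at 0.00958 and 0.00945.

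Fzd6 and Fzd7 were higher in CiSCs and lower in MSCs than in MEFs. Fzd7, a receptor known from intestinal stem cells, had 238 and 244 CPM in CiSCs and 36.1 and 39.4 CPM in MSCs, against 109 and 69.3 CPM in MEFs. Its log2 fold change over MEFs was 1.44 ± 0.22 in CiSCs (adjusted p = 0.00278) and -1.24 ± 0.22 in MSCs (adjusted p = 0.00510), and that of CiSCs over MSCs was 2.67 ± 0.23 (adjusted p = 1.95e-04). Fzd6, known for planar polarity in skin and hair, had 30.9 and 28.6 CPM in CiSCs and 5.31 and 7.15 CPM in MSCs, against 13.4 and 9.98 CPM in MEFs. The matching log2 fold changes were 1.35 ± 0.22 (adjusted p = 0.00352), -0.91 ± 0.23 (adjusted p = 0.0188) and 2.25 ± 0.23 (adjusted p = 3.85e-04). Without the first MSC library, the MSC calls against MEFs were lost, at 0.0545 for Fzd7 and 0.131 for Fzd6.

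Fzd5 ran the opposite way, with 6.72 and 7.01 CPM in CiSCs and 33.3 and 27.8 CPM in MSCs, against 17.5 and 11.8 CPM in MEFs. Fzd5 was 1.10 ± 0.23 (log2) below MEFs in CiSCs (adjusted p = 0.00997) and 1.06 ± 0.22 above them in MSCs (adjusted p = 0.00961), and differed by -2.15 ± 0.23 between CiSCs and MSCs (adjusted p = 5.04e-04). Either CiSC library left out took the first of these to 0.0686 and 0.0589, and the first MSC library left out took the second to 0.0804. Fzd2 had 133 and 125 CPM in CiSCs and 204 and 213 CPM in MSCs, against 161 and 147 CPM in MEFs. It was 0.44 ± 0.12 higher in MSCs than in MEFs (adjusted p = 0.0300; 0.102 to 0.182 without any 1 of the CiSC and MSC libraries, 0.0669 with a replicate block) and -0.69 ± 0.12 in CiSCs over MSCs (adjusted p = 0.00485, but 0.0629 without the second CiSC and 0.0549 without the second MSC library). For CiSCs over MEFs it gave -0.25 ± 0.12 (adjusted p = 0.146, and 0.0298 without the second MEF library). Fzd3, at 11.2 and 13.2 CPM in CiSCs and 12.7 and 12.6 CPM in MSCs, against 5.58 and 3.01 CPM in MEFs, was higher in both, by 1.51 ± 0.30 (adjusted p = 0.00798, and 0.0584 without the second CiSC library) and 1.56 ± 0.30 (adjusted p = 0.00660).

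The coreceptors Lrp5 and Lrp6 were abundant in all groups. Lrp5 had 212 and 210 CPM in CiSCs and 102 and 108 CPM in MSCs, against 133 and 128 CPM in MEFs. It was higher in CiSCs, by 0.69 ± 0.12 over MEFs (adjusted p = 0.00421) and by 1.01 ± 0.12 over MSCs (adjusted p = 7.11e-04), and the value for MSCs over MEFs was -0.32 ± 0.12 (adjusted p = 0.0677, and 0.0210 and 0.0195 without either MEF library). Lrp6 had 131 and 155 CPM in CiSCs and 131 and 113 CPM in MSCs, against 80.2 and 65.7 CPM in MEFs. Relative to MEFs it was 0.97 ± 0.17 higher in CiSCs (adjusted p = 0.00455) and 0.74 ± 0.17 higher in MSCs (adjusted p = 0.0127). The call of Lrp5 in CiSCs over MEFs was lost without either CiSC library (0.0527 and 0.0530), that of Lrp6 without the second (0.0516), and that of Lrp6 in MSCs without the first MSC library (0.105).

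R-spondins amplify Wnt signals by binding an LGR receptor and removing the ligases Rnf43 and Znrf3 from the membrane. Each group was dominated by a different LGR gene. Lgr6 had 185 and 198 CPM in CiSCs and 20.2 and 18.6 CPM in MSCs, against 3.77 and 5.92 CPM in MEFs. It rose by 5.30 ± 0.24 (log2) in CiSCs (adjusted p = 2.30e-05) and by 2.00 ± 0.22 in MSCs over MEFs (adjusted p = 6.67e-04), and was 3.30 ± 0.21 higher in CiSCs than in MSCs (adjusted p = 6.68e-05). Lgr5, a marker of many adult stem cells, was a gene of the MEF libraries. It had 0.461 and 0.400 CPM in CiSCs and 0.0579 and 0.283 CPM in MSCs, against 209 and 144 CPM in MEFs, from 18 and 6 reads against 6910. The log2 fold change over MEFs was -8.60 ± 0.38 in CiSCs and -10.04 ± 0.44 in MSCs, as a description of a gene tested only through its MEF level. By counting error, its level was 417-fold lower in CiSCs (interval 263 to 703) and 1099-fold lower in MSCs (505 to 2995) than in MEFs.

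Lgr4 had 14.6 and 15.4 CPM in CiSCs and 50.8 and 53.3 CPM in MSCs, against 18.6 and 13.2 CPM in MEFs. CiSCs and MEFs overlapped (-0.09 ± 0.19, adjusted p = 0.741), and MSCs were 1.71 ± 0.19 above MEFs (adjusted p = 6.42e-04). The CiSC level was 1.80 ± 0.19 (log2) below that of MSCs (adjusted p = 4.51e-04). On the per-length scale the 3 receptors summed to 30.6 and 32.8 CPM per kb in CiSCs and 13.1 and 13.4 in MSCs, against 48.5 and 34.1 in MEFs.

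The R-spondins were low in all libraries. Rspo1, which drives ovarian fate, had 0.143 and 0.0468 CPM in CiSCs and 2.71 and 2.34 CPM in MSCs, against 0.202 and 0.0520 CPM in MEFs. It was tested only through its MSC level, and its log2 fold changes, of 4.24 ± 0.61 for MSCs over MEFs and of -4.65 ± 0.63 for CiSCs over MSCs, are descriptions. Rspo2 had 0.858 and 0.748 CPM in CiSCs and no read in MSCs, against 4.80 and 4.52 CPM in MEFs. It fell by 2.53 ± 0.32 (log2) in CiSCs relative to MEFs (adjusted p = 0.00239). Set against 3 reads over the MSC group, it was at least 57.9-fold lower in MSCs than in MEFs and at least 9.96-fold higher in CiSCs than in MSCs. Rspo3, at 2.00 and 2.53 CPM in CiSCs and 3.40 and 2.06 CPM in MSCs, against 4.10 and 2.60 CPM in MEFs, passed no comparison.

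Of the ligases, Rnf43 had 0.715 and 0.561 CPM in CiSCs and 2.02 and 2.17 CPM in MSCs, against 0.202 and 0.364 CPM in MEFs. It was 2.86 ± 0.44 higher in MSCs than in MEFs (adjusted p = 0.00279) and -1.71 ± 0.39 in CiSCs over MSCs (adjusted p = 0.0133, but 0.0598 to 0.0912 without any 1 of the CiSC and MSC libraries), while CiSCs over MEFs gave 1.16 ± 0.47 (adjusted p = 0.0959). Znrf3 was nearly level, with 13.8 and 13.6 CPM in CiSCs and 9.26 and 8.28 CPM in MSCs, against 10.1 and 7.47 CPM in MEFs. Its higher level in CiSCs passed narrowly, by 0.64 ± 0.20 over MEFs (adjusted p = 0.0455) and 0.64 ± 0.20 over MSCs (adjusted p = 0.0423). With a replicate block these were 0.0567 and 0.0546, and without 1 library they reached 0.192 and 0.223.

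The secreted antagonists bind Wnt proteins (Sfrp), block Lrp5 and Lrp6 (Dkk) or strip the lipid that ligands need (Notum). On the per-length scale the 8 Sfrp and Dkk genes summed to 123 and 119 CPM per kb in CiSCs and 574 and 572 in MSCs, against 140 and 106 in MEFs. Sfrp1 made up 51.3% and 50.2% of that sum and Dkk3 31.5% and 33.8% in CiSCs, Sfrp2 91.0% and 91.8% in MSCs, and Dkk2 53.3% and 51.6% in MEFs. The leading antagonist thus differed in each group.

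Sfrp2 had 34.0 and 30.9 CPM in CiSCs and 1045 and 1051 CPM in MSCs, against 1.37 and 1.20 CPM in MEFs. It rose by 4.66 ± 0.17 (log2) in CiSCs (adjusted p = 1.49e-05) and by 9.67 ± 0.19 in MSCs over MEFs (adjusted p = 8.56e-06), and differed by -5.01 ± 0.15 between CiSCs and MSCs (adjusted p = 8.20e-06). On the log2 scale CiSCs lay near the middle between the other groups. Dkk2, a ligand of Lrp6, had 5.82 and 5.76 CPM in CiSCs and 0 and 0.0543 CPM in MSCs, against 276 and 203 CPM in MEFs. It fell by 5.37 ± 0.24 (log2) in CiSCs relative to MEFs (adjusted p = 2.33e-05). The MSC level was 1 read, so that Dkk2 was 8920-fold lower in MSCs than in MEFs by counting error alone (interval 1601 to 352377) and 215-fold higher in CiSCs than in MSCs (38.3 to 8541).

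Sfrp4 had 4.58 and 3.37 CPM in CiSCs and 6.86 and 8.85 CPM in MSCs, against 0.354 and 0.520 CPM in MEFs. It was higher than in MEFs by 3.17 ± 0.35 in CiSCs (adjusted p = 7.49e-04) and by 4.15 ± 0.35 in MSCs (adjusted p = 2.22e-04). The CiSC level was 0.98 ± 0.28 (log2) below that of MSCs (adjusted p = 0.0288), which did not hold without any 1 of the 4 libraries compared (0.0673 to 0.191) or with a replicate block (0.0569). Sfrp1, the most abundant Sfrp of CiSCs, had 275 and 261 CPM in CiSCs and 166 and 139 CPM in MSCs, against 131 and 90.0 CPM in MEFs. It was 1.27 ± 0.21 higher in CiSCs than in MEFs (adjusted p = 0.00371) and 0.81 ± 0.21 higher in CiSCs than in MSCs (adjusted p = 0.0192), the second being 0.0671 to 0.146 without any 1 of the libraries compared. In MSCs over MEFs it gave 0.46 ± 0.20 (adjusted p = 0.115, and 0.00222 without the first MEF library).

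Dkk3, a divergent Dickkopf that does not act like the others on Lrp6, had 129 and 135 CPM in CiSCs and 32.8 and 35.0 CPM in MSCs, against 115 and 99.9 CPM in MEFs. CiSCs did not pass against MEFs (0.30 ± 0.13, adjusted p = 0.113; 0.0130 without the first MEF library), while in MSCs Dkk3 fell by 1.66 ± 0.13 relative to MEFs (adjusted p = 1.91e-04), and it was 1.96 ± 0.14 higher in CiSCs than in MSCs (adjusted p = 8.45e-05). Notum, the enzyme that removes the lipid of Wnt proteins and a known beta-catenin target, was detected mainly in CiSCs. It had 0.572 and 0.701 CPM in CiSCs and 0.106 and 0.217 CPM in MSCs, against 0 and 0.0520 CPM in MEFs. These were 27, 6 and 1 reads, and the ratio to MEFs was 24.9 in CiSCs (interval 4.10 to 1019) and 6.29 in MSCs (0.763 to 289). It was tested only through its CiSC level, so no test is given. Wif1, which binds Wnt proteins, was not tested, with 5 reads in CiSCs and 22 in MSCs, against 3 in MEFs.

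**Figure D4:**
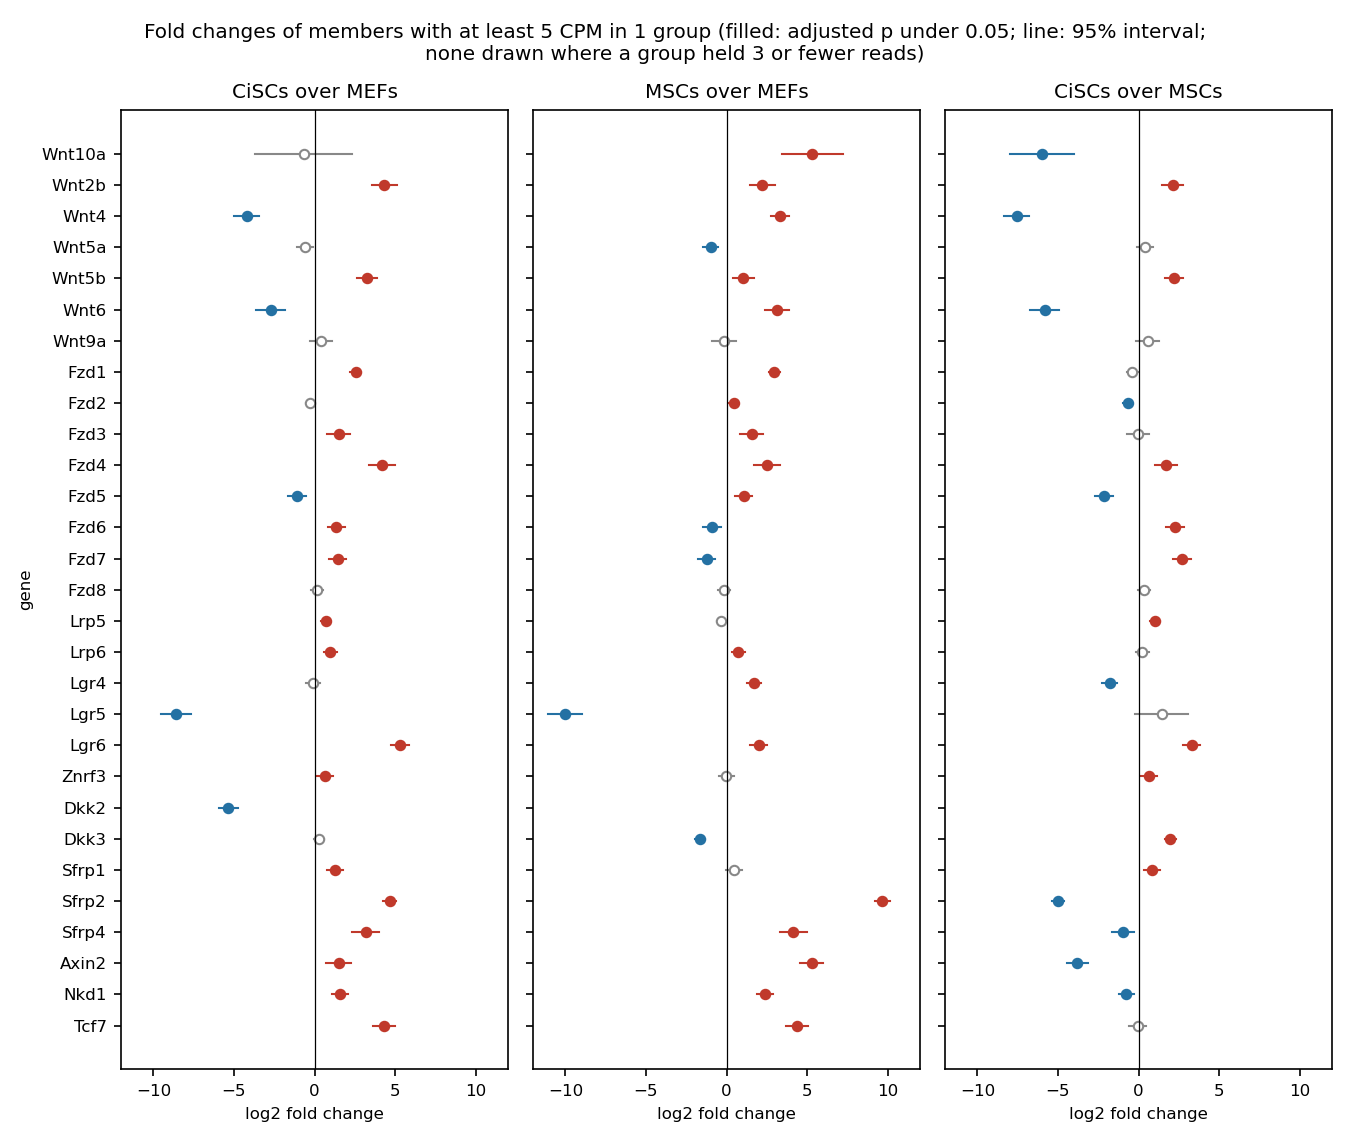
Log2 fold change (horizontal axis) with its 95% interval for the 29 Wnt genes that averaged 5 CPM or more in a group, in 3 comparisons; filled points have an adjusted p under 0.05, and no point is drawn where a group held 3 or fewer reads. Wnt4, Wnt6 and Fzd5 lie left of 0 for CiSCs over MEFs and right of 0 for MSCs over MEFs, and Fzd6 and Fzd7 lie the other way round.

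Axin2, the scaffold of the beta-catenin destruction complex and a widely used target gene, had 2.05 and 2.42 CPM in CiSCs and 29.8 and 32.9 CPM in MSCs, against 0.556 and 1.04 CPM in MEFs. All 3 groups stood apart. Axin2 rose by 5.29 ± 0.30 (log2) in MSCs over MEFs (adjusted p = 4.64e-05) and differed by -3.80 ± 0.26 between CiSCs and MSCs (adjusted p = 8.40e-05). The rise in CiSCs over MEFs was 1.49 ± 0.31 (adjusted p = 0.0104), and it did not pass without the second CiSC library (0.0698). Nkd1, a feedback inhibitor that binds Dishevelled, had 12.3 and 10.9 CPM in CiSCs and 20.8 and 18.8 CPM in MSCs, against 3.34 and 4.37 CPM in MEFs. Over MEFs it was higher by 1.59 ± 0.20 in CiSCs (adjusted p = 0.00133) and by 2.36 ± 0.20 in MSCs (adjusted p = 2.45e-04), and CiSCs over MSCs gave -0.77 ± 0.19 (adjusted p = 0.0177; 0.0779 to 0.130 without any 1 of the libraries compared).

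Tcf7, a nuclear partner of beta-catenin and itself a target, had 6.53 and 5.94 CPM in CiSCs and 6.80 and 6.24 CPM in MSCs, against 0.354 and 0.260 CPM in MEFs. It rose by 4.31 ± 0.29 (log2) in CiSCs (adjusted p = 9.11e-05) and by 4.38 ± 0.29 in MSCs over MEFs (adjusted p = 8.92e-05). CiSCs and MSCs overlapped, and their difference was -0.07 ± 0.21 (95% interval -0.58 to 0.45; adjusted p = 0.839). Lef1, its close relative, had 1.24 and 0.701 CPM in CiSCs and 0.159 and 0.326 CPM in MSCs, against 0.303 and 0 CPM in MEFs. Lef1 was tested only through its CiSC level, with 41 reads in CiSCs and 9 in MSCs, against 6 in MEFs. Its log2 fold changes, given as descriptions, were 2.61 ± 0.95 for CiSCs over MEFs and 1.97 ± 0.89 for CiSCs over MSCs. Neither passed with all 3 groups in the fit. With only CiSCs and MSCs in the fit, the value for CiSCs over MSCs did pass (2.00, adjusted p = 0.0198 by edgeR), which is also a description.

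The other genes of the pathway were taken from 7 lists, with 79 genes in the files and 71 tested. Between CiSCs and MEFs 32 were higher and 13 lower in CiSCs, and 26 did not pass (median log2 fold change 0.47). Between MSCs and MEFs 21 were higher and 15 lower in MSCs, and 35 did not pass (median 0.16). Between CiSCs and MSCs 24 were higher and 17 lower in CiSCs (median 0.15), which became 31 and 11 with library totals in place of the scaled sizes. Leaving out 1 library moved these counts to 20 to 42 higher and 7 to 16 lower for CiSCs over MEFs, 13 to 31 and 6 to 19 for MSCs over MEFs, and 14 to 31 and 6 to 20 for CiSCs over MSCs. The lowest counts came without a CiSC or MSC library of that comparison and the highest without a MEF library. The shares of all tested genes that passed are those given above, 40.9%, 42.5% and 42.8%.

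Planar polarity genes, which orient cells in a sheet, were higher in CiSCs than in MEFs for 6 of 8 tested and lower for 1, and in MSCs for 4 and 1. That is 87.5% and 62.5% called, beside 40.9% and 42.5% of all tested genes. Between CiSCs and MSCs 2 were higher and 1 lower in CiSCs, or 37.5%, which lay below the 42.8% of all tested genes. The median log2 fold change of that comparison was 0.096. Vangl2 had 21.7 and 23.7 CPM in CiSCs and 6.70 and 7.33 CPM in MSCs, against 8.57 and 6.70 CPM in MEFs, and rose in CiSCs by 1.57 ± 0.19 over MEFs (adjusted p = 9.83e-04) and 1.69 ± 0.19 over MSCs (adjusted p = 5.94e-04). Daam2, a formin linked to Dishevelled, had 53.4 and 55.4 CPM in CiSCs and 122 and 157 CPM in MSCs, against 11.7 and 7.88 CPM in MEFs, with log2 fold changes over MEFs of 2.47 ± 0.23 (adjusted p = 3.50e-04) and 3.83 ± 0.24 (adjusted p = 7.30e-05). Vangl1 rose over MEFs by 1.62 ± 0.13 in CiSCs (adjusted p = 2.07e-04) and 1.27 ± 0.13 in MSCs (adjusted p = 5.44e-04).

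Among the coreceptors and alternative receptors, 4 of 9 tested were higher and 2 lower in CiSCs than in MEFs, and 1 higher and 3 lower in MSCs (66.7% and 44.4% called, the second near the 42.5% of all tested genes). Gpc3, a cell-surface proteoglycan that binds Wnt proteins, had 219 and 247 CPM in CiSCs and 31.3 and 24.8 CPM in MSCs, against 37.9 and 46.5 CPM in MEFs. It was 2.46 ± 0.18 higher in CiSCs than in MEFs (adjusted p = 1.32e-04) and 3.05 ± 0.19 higher than in MSCs (adjusted p = 5.28e-05). Its call in MSCs over MEFs (-0.59 ± 0.18, adjusted p = 0.0370) was lost without any library but the first MEF one, at 0.0530 to 0.229, and was 0.0678 with a replicate block. Ror1, a receptor kinase for Wnt5a, rose over MEFs by 2.42 ± 0.44 in CiSCs (adjusted p = 0.00606) and 2.10 ± 0.44 in MSCs (adjusted p = 0.0101; 0.0685 without the first MSC library). Ptk7, a planar polarity receptor, fell by 0.91 ± 0.12 in CiSCs (adjusted p = 0.00179) and by 2.05 ± 0.13 in MSCs (adjusted p = 6.75e-05) relative to MEFs.

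Extracellular modulators outside the families above were higher in CiSCs than in MEFs for 4 of 7 tested and lower for 2, and in MSCs for 4 and 1 (85.7% and 71.4% called). Draxin, a secreted guidance protein that can inhibit Wnt signals, had 10.7 and 11.1 CPM in CiSCs and 10.4 and 9.89 CPM in MSCs, against 0.0506 and 0.0566 CPM in MEFs. With 2 reads in MEFs, its ratio to MEFs was 213 in CiSCs (interval 58.6 to 1763) and 198 in MSCs (54.3 to 1637). Tinagl1, a matrix protein, rose by 4.36 ± 0.19 in CiSCs (adjusted p = 1.83e-05) and 5.05 ± 0.19 in MSCs over MEFs (adjusted p = 1.45e-05). Cthrc1, a secreted protein linked to planar polarity signalling, had 143 and 125 CPM in CiSCs and 9.62 and 8.42 CPM in MSCs, against 11.5 and 16.6 CPM in MEFs, and rose in CiSCs by 3.26 ± 0.22 over MEFs (adjusted p = 8.62e-05) and 3.90 ± 0.22 over MSCs (adjusted p = 4.22e-05).

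**Figure D5:**
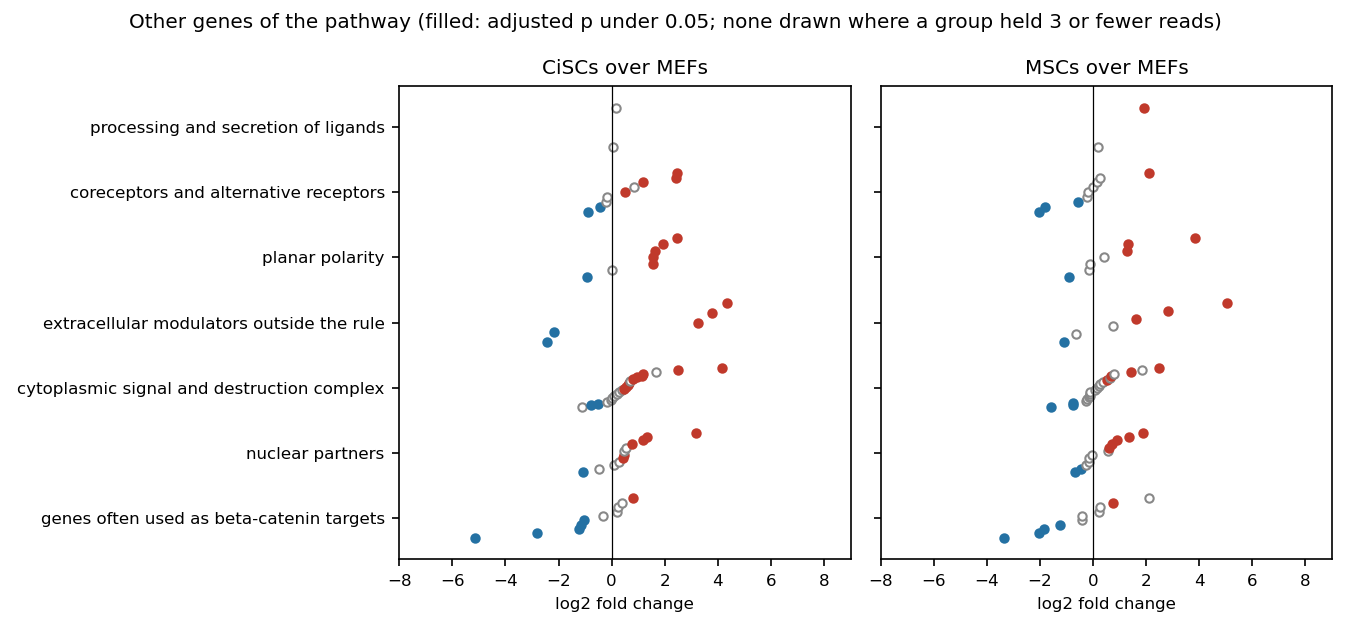
Log2 fold change (horizontal axis) of the tested genes of 7 other lists of the Wnt pathway for CiSCs over MEFs and MSCs over MEFs; filled points have an adjusted p under 0.05, and no point is drawn where a group held 3 or fewer reads. Planar polarity points lie mostly right of 0 for CiSCs over MEFs, and Fst and Cd44 lie furthest left of 0 among the genes often used as beta-catenin targets in CiSCs.

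Of the 22 genes of the cytoplasmic signal and destruction complex, 10 were higher and 2 lower in CiSCs than in MEFs, and 4 and 4 in MSCs. That is 54.5% and 36.4% called, beside 40.9% and 42.5% of all tested genes, so the MSC share lay below the background. Apc2, a brain-enriched relative of the scaffold Apc, rose in CiSCs by 2.49 ± 0.17 over MEFs (adjusted p = 9.77e-05) and 3.25 ± 0.18 over MSCs (adjusted p = 3.72e-05), at 52.4 and 46.4 CPM in CiSCs and 5.43 and 4.94 CPM in MSCs, against 9.69 and 7.85 CPM in MEFs. Dvl3, a Dishevelled adaptor, was 1.18 ± 0.12 above MEFs in CiSCs (adjusted p = 6.04e-04). Dact2, an antagonist of Dishevelled signalling, was 4.16 ± 0.64 above MEFs in CiSCs (adjusted p = 0.00286), from 11 reads in MEFs. The Dact2 calls in MSCs over MEFs (adjusted p = 0.0253) and CiSCs over MSCs (0.0392) were lost without either MSC or either CiSC library. Of 12 nuclear partners, 6 were higher and 1 lower in CiSCs than in MEFs, and 5 and 2 in MSCs (58.3% called in each). Pygo1, which links beta-catenin to chromatin, rose over MEFs by 3.17 ± 0.20 in CiSCs (adjusted p = 7.54e-05) and by 1.34 ± 0.20 in MSCs (adjusted p = 0.00261). Bcl9, its partner, rose by 1.17 ± 0.13 in CiSCs (adjusted p = 6.38e-04) and 1.86 ± 0.13 in MSCs (adjusted p = 1.01e-04), and Tcf7l1, mainly a repressor of the Tcf family, by 1.33 ± 0.14 in CiSCs (adjusted p = 6.42e-04) but not past the test in MSCs (-0.17 ± 0.14, adjusted p = 0.361).

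Of 11 tested genes outside the rule that are often used as beta-catenin targets, 2 were higher and 5 lower in CiSCs than in MEFs, and 2 and 4 in MSCs (63.6% and 54.5% called). Fst, which binds activins, had 1.96 and 2.01 CPM in CiSCs and 18.1 and 16.5 CPM in MSCs, against 100 and 40.2 CPM in MEFs. It fell by 5.14 ± 0.49 (log2) in CiSCs (adjusted p = 3.62e-04) and by 2.02 ± 0.40 in MSCs relative to MEFs (adjusted p = 0.00789; 0.0595 and 0.0692 without either MSC library). Cd44, an adhesion receptor that leukocytes also express, fell by 2.82 ± 0.23 in CiSCs (adjusted p = 2.07e-04) and by 1.84 ± 0.22 in MSCs (adjusted p = 0.00103). All 11 leukocyte markers were also lower in both groups than in MEFs, and a link to Cd44 was not tested. Myc fell by 1.23 ± 0.16 in CiSCs relative to MEFs (adjusted p = 0.00143). Of the pair of genes needed to make and export Wnt proteins, the acyltransferase gene Porcn had 5.77 and 5.42 CPM in CiSCs and 19.6 and 19.1 CPM in MSCs, against 4.10 and 6.03 CPM in MEFs, and was 1.94 ± 0.22 higher in MSCs than in MEFs (adjusted p = 8.43e-04). Wls, the carrier of Wnt proteins, had 326 and 338 CPM in CiSCs and 367 and 351 CPM in MSCs, against 413 and 224 CPM in MEFs. It passed no comparison, and its direction turned on the MEF library: without the first it was higher than in MEFs, at adjusted p of 0.00246 in CiSCs and 0.00101 in MSCs, and without the second it was lower in CiSCs (log2 fold change -0.32, adjusted p = 0.0284).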

How the data were processed

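RNA of 6 libraries was sequenced on the BGISEQ-500 platform. The authors deposited 1 table per library of expected counts (estimated read counts per gene identifier that need not be whole), with 42.0% to 43.8% of values not whole (tolerance 1e-09). HISAT and mm9 are named in the submitters' processing notes. The counting program, the annotation, the strand and any filter are not given in the sources used here, so reads of overlapping or antisense genes cannot be told apart, and some normalised values would look alike. Symbols and promoter sequences came from RefSeq (GRCm38.p6), another build than that of the alignment.

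Counts were rounded and fitted with edgeR 4.0.16 in R 4.3.3 over all 6 libraries (default filter on low counts, trimmed mean of M values, quasi-likelihood test, 3 residual degrees of freedom, two-sided, Benjamini-Hochberg adjusted p under 0.05). Standard errors were derived from the F value of each fold change. CPM came from the counts before rounding. Levels per kb used the longest coding transcript of the mouse GENCODE annotation. Intervals beside ratios of low counts are exact binomial 95% intervals, and a group at 0 was set at 3 reads (0.0708 CPM in CiSCs, 0.0806 CPM in MSCs, 0.0769 CPM in MEFs). Both cover counting error only. The procedure was also run on simulated counts in which all groups varied alike. That run cannot show how the test behaves with MEF libraries that stand further apart than the others.

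The alternatives were leaving out each library, a replicate block, a fit of just the 2 groups, DESeq2 1.42.0, median-ratio (RLE) size factors, library totals, no filter, a filter of 1 CPM in 2 libraries, counts not rounded, and an adjusted p under 0.01. A block with crossed CiSC numbers was chosen after seeing the data. The members and lists were chosen with earlier results of these data known. Members averaging 5 CPM or more in a group get their value in every library, the others their reads or calls, and each other pathway list names up to 3 genes with the smallest adjusted p for CiSCs against MEFs (2 with the highest mean where none passed). Each cell type list names its markers of highest mean; Wt1, Gata4 and Fshr were chosen after their values were seen.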

Additional observations from a re-analysis of the deposited data

How the results depend on the processing

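With only the 2 groups compared in the fit, 4768, 5188 and 9396 genes were called, against 6250, 6497 and 6534. The numbers, in the order CiSCs over MEFs, MSCs over MEFs and CiSCs over MSCs, thus fell against MEFs and rose in the third. Members called higher were then 17, 20 and 16, against 20, 22 and 12, and lower 6, 7 and 15, against 7, 7 and 14. Without 1 library, all genes called ranged from 3449 to 9479 between CiSCs and MEFs, from 3657 to 9709 between MSCs and MEFs and from 4023 to 9303 between CiSCs and MSCs. Members called higher ranged from 12 to 21 in the first of these comparisons, from 18 to 23 in the second and from 10 to 16 in the third, and members called lower from 5 to 9, 4 to 8 and 9 to 15. Other pathway genes called higher ranged from 20 to 42, 13 to 31 and 14 to 31, and lower from 7 to 16, 6 to 19 and 6 to 20. A group with 1 library left is assumed to vary like the others. At an adjusted p under 0.01, 3774, 4009 and 4324 genes were called, with 21 other pathway genes higher and 8 lower in CiSCs than in MEFs, 9 lower in MSCs than in MEFs and 8 lower in CiSCs than in MSCs; the stricter threshold leaves fewer. Library totals gave 11 other pathway genes lower in CiSCs than in MSCs, and moved the median log2 fold change of all genes to 0.114, -0.102 and 0.212.

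The deviations of same-numbered libraries were weakly correlated (-0.129 for CiSCs with MSCs, -0.215 for CiSCs with MEFs and 0.138 for MSCs with MEFs). These values cannot decide whether libraries were paired, because other pairings, such as crossed CiSC numbers, were possible. With the replicate block, 5468, 5672 and 5814 genes were called, with 18, 21 and 11 members higher and 6, 7 and 12 lower. With crossed CiSC numbers the block gave 6829, 7158 and 6998 genes, and DESeq2 gave 6330, 6591 and 6525.

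The fold changes that turned direction were uncalled in the values reported. Without 1 library, CiSCs over MEFs ranged from -0.00104 to 0.240 for Fzd8, -1.36 to 0.765 for Rspo1, -0.316 to 0.542 for Wls, -0.312 to 0.156 for Lgr4, -0.135 to 0.450 for Porcn and -1.69 to 4.001 for Wnt10a. MSCs over MEFs ranged from -0.547 to 0.154 for Wnt9a, -0.211 to 0.200 for Znrf3, -0.697 to 0.0436 for Rspo3, -0.180 to 0.479 for Wnt11, -0.285 to 0.0349 for Vangl2, -0.319 to 5.29 for Lef1 and -0.205 to 0.651 for Wls. CiSCs over MSCs ranged from -0.175 to 0.0653 for Fzd3 and -0.586 to 0.134 for Rspo3. Library totals turned Lgr4 (0.0382) in CiSCs over MEFs and Fzd3 (0.185), Wnt2 (0.0300), Tcf7 (0.173) and Wls (0.127) in CiSCs over MSCs, and Znrf3 in MSCs over MEFs became 0.00131 with the replicate block and 0.00133 with the 1 CPM filter. Apart from fewer samples or a new scale, the cause was not tested. At this depth a level below 0.0708 CPM in CiSCs, 0.0806 CPM in MSCs and 0.0769 CPM in MEFs cannot be told from 0.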
